A study of Mus musculus with 6 samples.

Results

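The genes described here are the receptor chains for type I and type II interferon (Ifnar1, Ifnar2, Ifngr1 and Ifngr2), the kinases bound to those chains (Jak1, Jak2 and Tyk2) and 3 suppressors of cytokine signalling (Socs1, Socs2 and Socs3). They were taken by gene symbol from the deposited expression table, and all 10 were found among its 18280 genes. All 10 were among the 14124 genes with enough counts to be tested. RNA came from whole ovaries of 3 mice with the genotype Dennd1aTG (TG) and 3 wild-type mice (WT). Every animal of both genotypes had been given PMSG (pregnant mare serum gonadotropin, which acts like FSH) 44 h before collection, so no untreated ovary serves as a baseline. The labels give neither the promoter nor the founder line of the transgene, nor the strain or the age of the mice.

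Type I interferons bind a receptor made of the chains IFNAR1 and IFNAR2, which carry the kinases TYK2 and JAK1. Interferon gamma binds IFNGR1 and IFNGR2, which carry JAK1 and JAK2. The kinases phosphorylate STAT proteins. STAT2 and IRF9 belong to a complex that binds the interferon-stimulated response element (ISRE), and STAT dimers bind the gamma-activated sequence (GAS). SOCS proteins are made in response to cytokines and shut the same kinases or receptors off. In the ovary JAK2 also serves the receptors for prolactin and growth hormone, and SOCS2 is known as a brake on growth hormone signalling.

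None of the 10 genes passed the test between the genotypes. At an adjusted p under 0.05 in edgeR's quasi-likelihood test, 0 of 10 passed in either direction, where 1.05% of all tested genes passed, 1.02% lower and 0.0354% higher in TG. At an unadjusted p under 0.05 there were also 0 of 10, against 4.08% of tested genes, and DESeq2 and limma-voom called 0 of 10 as well, where they called 1.44% and 0.977% of tested genes. The TG and WT libraries overlapped for every one of the 10, while 8.25% of tested genes had groups without overlap. The log2 fold changes, TG over WT, lay between -0.19 for Socs1 and 0.07 for Jak1, with a median of -0.04 against 0.00 over all tested genes. Of the 10 values 9 were below 0, as were 49.3% of those of all tested genes, and all 10 of the 95% intervals included 0. In the same libraries the transcripts of Stat2 and Irf9, which act just below these receptors and are themselves induced by interferon, were lower in TG.

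The transgene label held in the libraries, since Dennd1a averaged 44.5 ± 4.91 normalised counts-per-million (CPM) in WT ovaries and 580.0 ± 8.97 CPM in TG ovaries (SD, n = 3 each). Libraries held between 17075484 and 18516171 estimated counts. Over the 6 libraries granulosa markers summed to between 4771 and 6096 CPM and oocyte markers to between 102 and 201 CPM. Theca and interstitial markers summed to between 15901 and 19495 CPM. Cyp11a1 alone measured between 11757 and 13859 CPM, most of the theca sum. Of the 5 theca and interstitial markers 0 were called, and 2 had log2 fold changes below 0. An unadjusted p under 0.05 in edgeR was found for 2, both higher in TG: Cyp17a1 (0.73, SE 0.16, adjusted p = 0.115) and Aldh1a1 (0.38, SE 0.16). Cyp17a1 measured between 466 and 707 CPM in TG and between 294 and 408 CPM in WT. Some markers of neighbouring tissue stood apart in a pair of libraries. The adipocyte marker Cfd measured 86.8 CPM in TG replicate 2 against at most 9.45 CPM elsewhere. The oviduct marker Ovgp1 measured 40.9 CPM in WT replicate 3 against at most 5.99 CPM elsewhere. Adipoq, Fabp4 and Cidec were also highest in TG replicate 2, but the adipocyte marker Plin1 measured 20.8 CPM there and 19.2 CPM in TG replicate 3. The other oviduct markers did not set WT replicate 3 apart as clearly. Sox17 measured 11.6 CPM there and 11.3 CPM in TG replicate 3, and Pax8 was highest there at only 0.705 CPM. Foxj1 was highest in TG replicate 2. Macrophage and myeloid markers summed to between 361 and 397 CPM in TG and between 410 and 652 CPM in WT, with 13 of 13 log2 fold changes below 0 and 1 of 13, Fcgr1, called lower. Endothelial markers had 6 of 6 log2 fold changes below 0 and 0 called. Of all tested genes 49.3% had log2 fold changes below 0, 1.02% were called lower and 0.0354% higher in TG. In edgeR 4.08% of them had an unadjusted p under 0.05. Erythrocyte markers summed to between 194 and 216 CPM in TG and between 119 and 134 CPM in WT, with 3 of 5 called higher (Hba-a1, Hba-a2 and Hbb-bs). In whole ovaries fewer cells of a type and less RNA per cell cannot be told apart, and the part of these markers in the values below was not tested.

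Promoter sequences were searched for the letters of both kinds of STAT target site. RefSeq windows of 300 bases (250 before and 50 after a transcription start, GRCm38.p6) were at hand for 9 of the 10 genes. They were searched on both strands for GAAA followed, after any 2 bases, by a second GAAA, taken as the core of the ISRE, and for TTCNNNGAA, which reads the same on both strands, as the GAS. Of all 32851 such windows 3.44% held the ISRE letters and 8.30% the GAS letters. Of the 9 windows 1, that of Socs1, held the ISRE letters, with a pair of overlapping matches whose first bases lie at -83 and -77 from the start. The same letters stood in 9 of 13 windows of the interferon-induced reference genes used below, a list that an earlier analysis had shown to be lower in TG. Among them the Isg15 window held overlapping matches from -78, -72 and -66, more than that of Socs1. The upstream parts of the Socs1 window (chr16:10785537-10785786, minus strand) and of the Isg15 window (chr4:156200819-156201068, minus strand) are given because both hold the site GAAACCGAAA, while Isg15 was called lower in TG and Socs1 was not. Capitals mark the ISRE matches.

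Socs1: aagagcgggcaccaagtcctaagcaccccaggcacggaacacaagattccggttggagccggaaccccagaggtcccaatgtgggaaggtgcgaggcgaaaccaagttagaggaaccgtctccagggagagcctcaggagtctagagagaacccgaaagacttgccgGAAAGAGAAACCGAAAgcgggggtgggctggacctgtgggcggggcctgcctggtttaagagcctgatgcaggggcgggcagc

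Isg15: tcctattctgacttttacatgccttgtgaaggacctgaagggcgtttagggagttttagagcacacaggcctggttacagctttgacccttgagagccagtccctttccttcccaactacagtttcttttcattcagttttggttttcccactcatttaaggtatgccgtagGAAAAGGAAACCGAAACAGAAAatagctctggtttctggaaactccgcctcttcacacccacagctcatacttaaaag

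The Socs1 transcript, with such a site, averaged 35.6 ± 1.02 CPM in WT ovaries and 31.3 ± 4.71 CPM in TG ovaries (SD, n = 3 each), and Isg15 fell by 3.63 on the log2 scale (SE 0.20). The 95% intervals of the log2 fold change were -0.45 to 0.08 for Socs1 and -4.09 to -3.18 for Isg15, and the difference between the pair was not tested. GAS letters were found in 3 of the 9 windows: TTCCTGGAA from -214 in Ifnar2, TTCTTAGAA from -154 in Socs3, whose window lies inside the annotated span of the gene, and TTCACGGAA in Ifnar1, where the match begins at -5 and runs across the start. A match describes the letters in these windows and does not show that a factor bound there.

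Levels per transcript length put neighbouring genes in the same order in at least 5 of 6 libraries. On the deposited FPKM scale, averaged over the 6 libraries, Socs2 was highest at 257 ± 29.0 FPKM (SD, n = 6), followed by Jak1 at 101 ± 7.56, Ifnar2 at 85.0 ± 5.34 and Ifngr2 at 56.8 ± 4.03. Socs3 came next at 45.0 ± 11.7 FPKM, then Socs1 at 31.7 ± 3.50, Ifngr1 at 28.4 ± 1.59 and Ifnar1 at 24.3 ± 2.03. The kinases Jak2 at 10.2 ± 0.50 FPKM and Tyk2 at 6.35 ± 0.535 FPKM were lowest. The ranges of neighbours in this order did not overlap from Socs2 down to Ifngr2, nor from Ifnar1 down to Tyk2. Those of Ifngr2, Socs3, Socs1, Ifngr1 and Ifnar1 did overlap, each with its neighbour, although Ifngr1 was above Ifnar1 within each of the 6 libraries. Socs2 lay above 97.8% of tested genes in mean FPKM and Tyk2 above 38.0%.

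**Figure D1:**
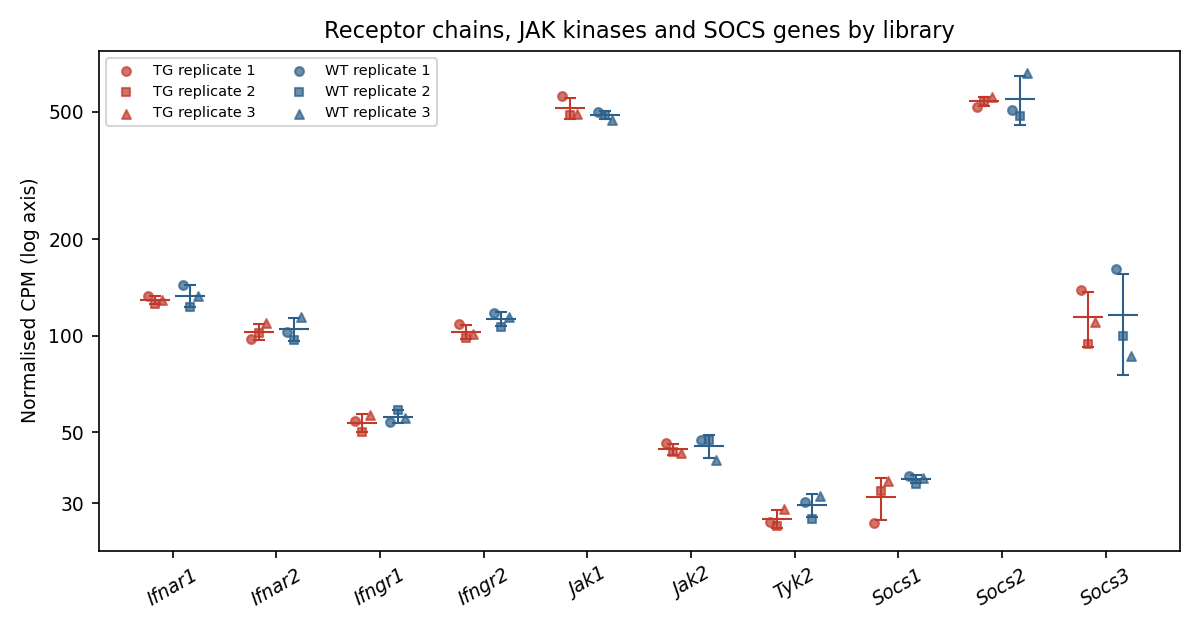
Normalised CPM (log axis) of the 10 genes in each library; points are libraries, horizontal bars group means and error bars 1 SD (n = 3 each). TG and WT libraries overlap for every gene, and Socs3 is highest in replicate 1 of both genotypes.

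Both chains of the type I interferon receptor had close levels in the 2 genotypes. Ifnar1 (Entrez gene 15975) measured 144, 123 and 133 normalised CPM in WT replicates 1, 2 and 3, and 133, 126 and 129 in TG replicates 1, 2 and 3. The TG values sit inside the WT range. Its fold change on the log2 scale was -0.04 (SE 0.08), with a 95% interval of -0.23 to 0.14 and an adjusted p of 0.9997 by edgeR. Ifnar2 (Entrez gene 15976), the chain with the higher affinity for the ligand, measured 103, 97.1 and 114 CPM in the WT ovaries and 97.6, 102 and 109 CPM in the TG ovaries. Here too the WT range holds all TG values. Its fold change on the log2 scale was -0.02 (SE 0.09; 95% interval -0.22 to 0.18).

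Relative to Ifnar2, Ifnar1 stood at 0.312, 0.255 and 0.269 of its FPKM in TG replicates 1 to 3 and at 0.322, 0.293 and 0.269 in WT. The mouse Ifnar2 gene makes a membrane-bound and a soluble form of the chain, which gene counts do not separate. The deposited FPKM imply a length of 1212 to 1233 bases for Ifnar2 and of 5275 to 5846 bases for Ifnar1, so the ratio rests on the transcript lengths that the authors' software assigned. Counts of Ifnar1 and of Jak1 were not whole numbers in any library, whereas those of the other 8 genes were whole in all 6 (within 0.001), so the level of those 2 genes includes divided reads.

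The interferon gamma receptor chains likewise did not pass the test. Ifngr1 (Entrez gene 15979), the ligand-binding chain, measured 53.7, 58.8 and 55.2 CPM in the WT ovaries and 54.0, 49.9 and 56.7 CPM in the TG ovaries. TG replicate 3 lay above 2 of the WT libraries, and the value for TG over WT was -0.06 on the log2 scale (SE 0.09; 95% interval -0.25 to 0.13). Ifngr2 (Entrez gene 15980), the signalling chain, measured 117, 107 and 114 CPM in the WT ovaries and 109, 98.7 and 101 CPM in the TG ovaries. TG replicate 1 alone reached into the WT range. Ifngr2 had the smallest unadjusted p of the 10 genes, 0.134 in edgeR, at -0.13 on the log2 scale (SE 0.08; 95% interval -0.31 to 0.05, adjusted p = 0.9997). On the FPKM scale Ifngr1 stood between 0.451 and 0.551 of Ifngr2 over the 6 libraries.

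Ifnar2, Ifnar1 and Ifngr2 lie side by side on chromosome 16 of GRCm38, to which mm10 corresponds. Ifnar2 spans positions 91372783 to 91405589, Ifnar1 91485032 to 91510523 and Ifngr2 91547059 to 91564007, all on the plus strand. Il10rb, a chain of the interleukin-10 and type III interferon receptors, lies between Ifnar2 and Ifnar1. Of the tested genes within 100000 bases of Ifnar1 and Ifnar2 there were 5 including these, and their log2 fold changes ran from -0.13 for Ifngr2 to 0.06 for Tmem50b. Ifngr1 is on chromosome 10 (19591949 to 19610229, plus strand). The Ifnar2 annotation overlaps the gene Gm21970 on the same strand, and reads shared by the pair cannot be assigned with certainty.

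Among the kinases Jak1, which both receptor types need, was the only one of the 10 genes with a log2 fold change above 0, at 0.07, or 0.0082 without TG replicate 1. Jak1 (Entrez gene 16451, chromosome 4, 101151974 to 101265282) measured 500.1, 491 and 473 CPM in the WT ovaries and 560, 488 and 493 CPM in the TG ovaries. TG replicate 1 was highest, and the other TG libraries lay within the WT range. The fold change on the log2 scale was 0.07 (SE 0.08), with a 95% interval of -0.12 to 0.27 and an adjusted p of 0.9997 by edgeR. Jak2 (Entrez gene 16452, chromosome 19, 29251803 to 29313095) measured 47.3, 47.3 and 41.0 CPM in the WT ovaries and 46.1, 43.4 and 43.0 CPM in the TG ovaries. All TG values fell between the lowest and the highest WT library, and TG over WT was -0.03 on the log2 scale (SE 0.09; 95% interval -0.23 to 0.17).

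Tyk2 (Entrez gene 54721, chromosome 9, 21104068 to 21131393), the kinase of the IFNAR1 chain, measured 30.2, 26.8 and 31.5 CPM in the WT ovaries and 26.2, 25.5 and 28.7 CPM in the TG ovaries. TG replicate 3 exceeded WT replicate 2, so the groups overlapped. Its fold change on the log2 scale was -0.14 (SE 0.10; 95% interval -0.36 to 0.09). On the FPKM scale Jak1 exceeded Tyk2 by 13.4-fold to 19.4-fold and Jak2 by 9.27-fold to 11.0-fold over the 6 libraries. Jak1 overlaps Raver2 and the small nuclear RNA gene Gm24468, and Tyk2 overlaps 1700084C06Rik, on the opposite strand, and Jak1 also overlaps the processed pseudogene Gm12785 on the same strand. Without knowledge of the strand setting reads of the opposite-strand pairs cannot be told apart, and those of the same-strand pair cannot with it.

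**Figure D2:**
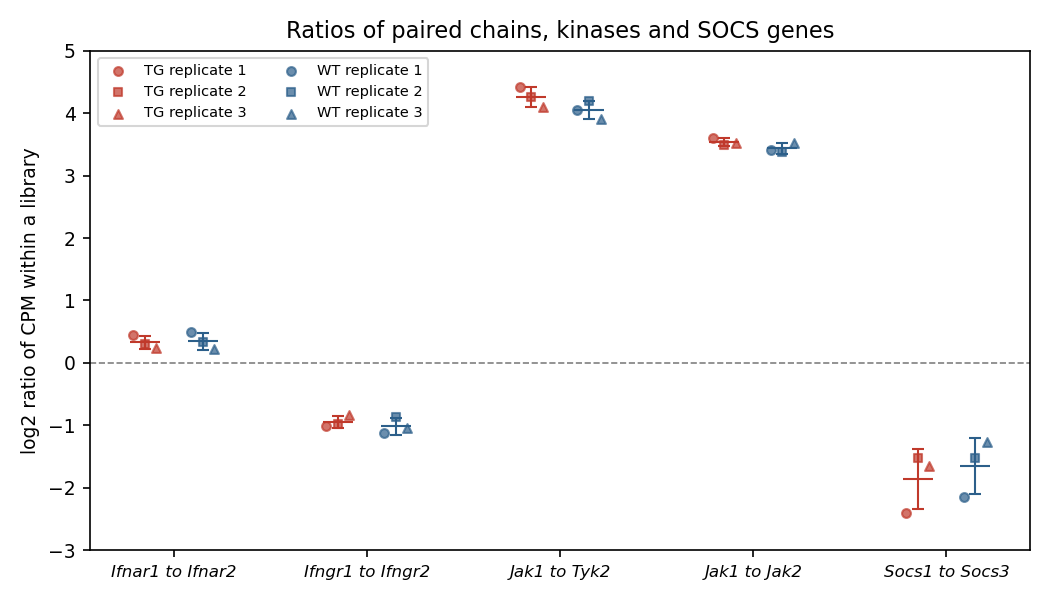
Log2 ratio of CPM between paired genes within each library; points are libraries, horizontal bars group means and error bars 1 SD (n = 3 each). The ratio of Jak1 to Tyk2 is 4.26 ± 0.16 in TG and 4.05 ± 0.14 in WT, and TG and WT overlap for all 5 pairs.

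Ratios within a library do not depend on how libraries are scaled to each other. The log2 ratio of Jak1 to Tyk2 was higher in TG by 0.21, that of Jak1 to Jak2 by 0.10 and that of Ifngr1 to Ifngr2 by 0.07, while the ratio of Ifnar1 to Ifnar2 differed by -0.02 and that of Socs1 to Socs3 by -0.22, or by 0.06 without TG replicate 1. Two-sided exact permutation tests over the 5 pairs gave p between 0.2 for Jak1 to Tyk2 and 0.8 for Ifnar1 to Ifnar2, and adjusted p of 0.75 or more. With 3 animals against 3 the smallest p such a test can give is 0.1. For the CPM of single genes the same test gave 0.2 for Ifngr2, Tyk2 and Socs1 and 0.5 or more for the others.

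None of the 3 SOCS genes passed the test either, and their values in each library are given next. Socs1 (Entrez gene 12703, chromosome 16, 10783808 to 10785536), a direct inhibitor of JAK kinases and the strongest known brake on interferon signalling of the family, measured 36.5, 34.5 and 35.8 CPM in the WT ovaries and 26.1, 32.8 and 35.2 CPM in the TG ovaries. TG replicate 1 was the lowest library, and TG replicate 3 lay within the WT range. At -0.19 (SE 0.12, 95% interval -0.45 to 0.08, adjusted p = 0.9997 in edgeR) its log2 fold change was the lowest of the 10 genes. Without TG replicate 1 it was -0.07.

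Socs2 (Entrez gene 216233, chromosome 10, 95383903 to 95417321) measured 505, 485 and 659 CPM in the WT ovaries and 519, 541 and 557 CPM in the TG ovaries. WT replicate 3 was highest, the library with the raised Ovgp1, and in the same library the smooth muscle gene Des measured 126 CPM against at most 40.5 CPM elsewhere. Socs2 had -0.03 on the log2 scale (SE 0.12; 95% interval -0.30 to 0.24), and without WT replicate 3 it turned to 0.12. Whether the tissue makeup of that library bears on Socs2 was not tested.

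Socs3 (Entrez gene 12702, chromosome 11, 117966079 to 117970336), which binds receptors of the interleukin-6 family and their kinases, measured 162, 99.6 and 86.2 CPM in the WT ovaries and 139, 94.4 and 110 CPM in the TG ovaries. Replicate 1 was the highest library in both genotypes. The log2 fold change was -0.02 (SE 0.22), and its 95% interval of -0.52 to 0.49, or 0.697-fold to 1.4-fold, was the widest of the 10 genes. Without WT replicate 1 the value turned to 0.30, and without TG replicate 1 it was -0.19.

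The coefficient of variation (CV, the SD as a percent of the mean) within genotypes, pooled over TG and WT, was 28.3% for Socs3, 12.6% for Socs2 and 10.2% for Socs1. Taken apart, Socs1 had 15.03% in TG and 2.86% in WT, and Socs2 had 3.51% in TG and 17.3% in WT. The wider groups are those that hold the low TG replicate 1 for Socs1 and the high WT replicate 3 for Socs2. For the 4 receptor chains and 3 kinases the pooled CV lay between 5.02% for Ifngr2 and 7.43% for Tyk2. The median pooled CV over the 8416 tested genes with at least 20 CPM was 8.09%, and 98.3% of those genes had a lower CV than Socs3. Counting alone gives a CV of 2.21% at the mean count of Socs3.

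**Figure D3:**
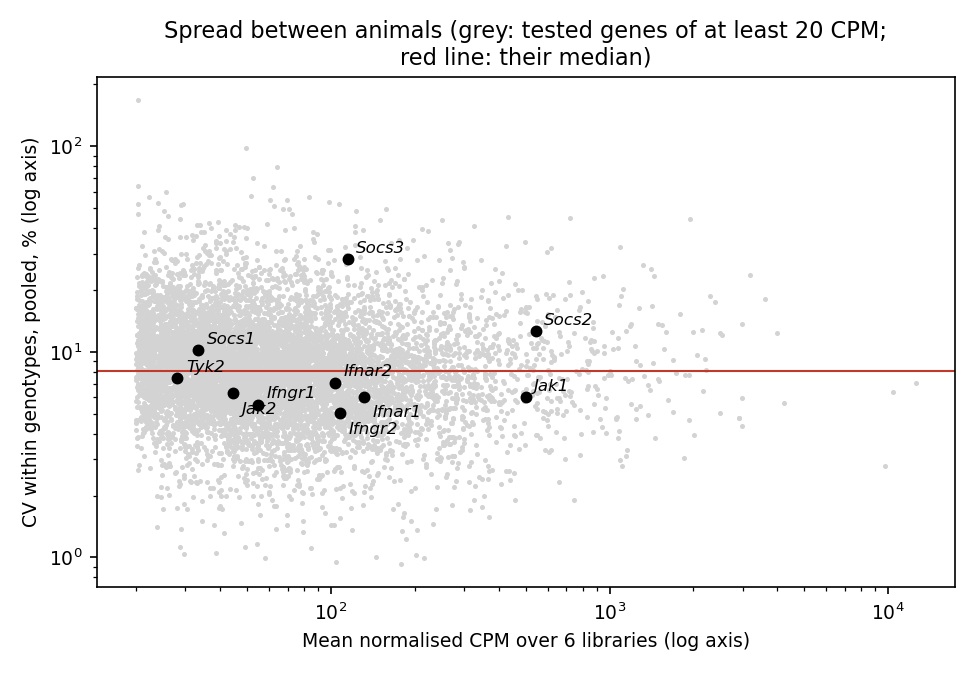
CV within genotypes, pooled over TG and WT (percent, log axis), against mean normalised CPM over 6 libraries (log axis) for tested genes of at least 20 CPM in grey, with the 10 genes in black; the red line is the median of 8.09%. The 3 SOCS genes lie above the line, with Socs3 at 28.3%, and the receptor chains and kinases lie below it, although Socs1 in WT alone (2.86%) and Socs2 in TG alone (3.51%) would lie below it too.

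By likeness of pattern over the 6 libraries (Pearson r of log2 CPM among 12703 other tested genes of at least 2 CPM), the genes closest to Ifngr2 were Fcgr3 (r = 0.996), Usp42 (0.995) and Fcrls (0.985). Fcgr3 and Fcrls are genes of macrophages and microglia, and their log2 fold changes were -0.41 and -0.56. The genes closest to Socs1 were Tbx4 (r = 0.986), Cers1 (0.977) and Fbf1 (0.970). For Socs3, looked up after its spread was seen, they were Fgd3 (r = 0.993), Ncoa2 (0.991) and Shisa2 (0.986). These values of r over 6 libraries are a description, with no test.

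Intervals show how large a change could have gone unseen. The 95% intervals of the 7 receptor and kinase genes lay between -0.36 and 0.27 on the log2 scale, that is between 0.777-fold and 1.20-fold. Those of the 3 SOCS genes lay between -0.52 and 0.49. Irf9 had -1.46 (95% interval -1.67 to -1.24) and Usp18, a protease that also blocks the IFNAR2 chain, -3.51 (95% interval -3.99 to -3.03).

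**Figure D4:**
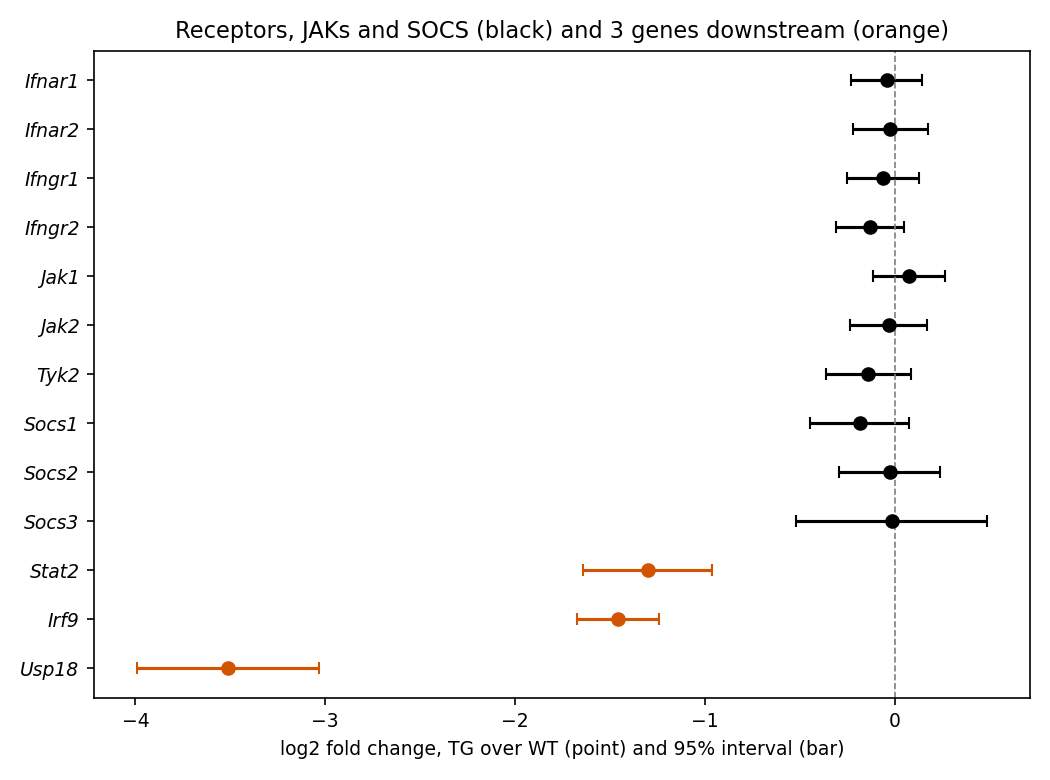
Log2 fold change, TG over WT (point), with its 95% interval from edgeR (bar) for the 10 genes in black and for Stat2, Irf9 and Usp18 in orange. All 10 black intervals cross 0 and stay between -0.52 and 0.49, and the 3 orange intervals lie at or below -0.96.

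Further along the pathway 2 of 8 genes of a list made of Jak3, STAT genes and Irf9 were called lower in TG and 0 higher, where 1.02% of tested genes were called lower. Irf9, the DNA-binding part of the complex named at the outset, measured 110, 103 and 125 CPM in the WT ovaries and 38.5, 42.4 and 41.8 CPM in the TG ovaries. Every WT library was above every TG library, and Irf9 fell by 1.46 on the log2 scale (SE 0.10, adjusted p = 5.78e-05 in edgeR). Stat2, its partner in that complex, measured 106, 93.0 and 143 CPM in the WT ovaries and 42.7, 46.2 and 49.7 CPM in the TG ovaries. Here too the groups did not overlap, and Stat2 fell by 1.30 on the log2 scale (SE 0.15, adjusted p = 0.00158 in edgeR). An earlier analysis of these data had shown Stat2 among the lowered genes. Stat3, Stat5a, Stat5b and Stat6 had log2 fold changes between -0.12 and -0.02 and did not pass. Jak3 at -0.23 and Stat4 at 0.05 did not pass either.

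The lists of other receptors gave 0 called genes. In edgeR 1.05% of all tested genes were called and 4.08% had an unadjusted p under 0.05. In the interferon and interleukin-10 receptor family 0 of 6 tested members passed in edgeR and 0 had an unadjusted p under 0.05, with a median log2 fold change of 0.00. Il10ra (-0.41, SE 0.27) and F3 (-0.23, SE 0.18), a family member by structure that serves blood coagulation, had the smallest p. Among the 21 tested receptors for other cytokines 0 passed in edgeR, 1 had an unadjusted p under 0.05, and the median was -0.04. That 1 was Csf3r, the receptor for granulocyte colony-stimulating factor, at -0.81 (SE 0.23, adjusted p = 0.370), followed by Il3ra at -0.36 (SE 0.18). Prlr, the prolactin receptor and a JAK2 partner, was named for that role and had -0.04 (SE 0.11) at 102 FPKM.

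The other members of the SOCS family had 0 of 5 genes past the threshold in edgeR, where 1.05% of tested genes passed. They had 0 with an unadjusted p under 0.05, against 4.08% of tested genes, and a median of -0.03. Cish, a STAT5 target that acts on the same receptors as SOCS2, had -0.27 (SE 0.21) and Socs4 had -0.21 (SE 0.18). Of the 16 other brakes on the pathway 1, Usp18, was called lower and 0 higher, where 1.02% of tested genes were called lower. An unadjusted p under 0.05 in edgeR was found for 3, against 4.08% of tested genes. Usp18 is also among the interferon-induced reference genes that an earlier analysis of these data had shown to be lower. Usp18 measured 59.4, 41.4 and 74.7 CPM in the WT ovaries and 4.94, 5.05 and 5.37 CPM in the TG ovaries. The other 2 were the leukocyte phosphatases Ptprc (-0.96, SE 0.20, adjusted p = 0.0733 in edgeR) and Ptpn6 (-0.52, SE 0.15, adjusted p = 0.440), both of immune cells, and the part of the macrophage and myeloid marker values given above in these was not tested. The phosphatases Ptpn1, Ptpn2 and Ptpn11 and the 4 PIAS genes had log2 fold changes between -0.07 and 0.11.

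Transcripts of the interferon genes that were in the table were too few to test. Of 21 ligand genes looked up, 4 were in the table and the other 17 were not analysed here. Those 17 include Ifnb1 and every Ifna gene looked up, so no values are at hand for these ligands of the type I receptor. Ifng gave 1, 0 and 2 counts in TG replicates 1 to 3 and 3, 4 and 1 in WT, Ifnl3 gave between 1 and 10 counts per library, and Ifnz and Ifnl2 at most 1.08. No difference was detectable at this depth. Of the tested interferon-induced reference genes 15 of 15 were called lower, where 1.02% of tested genes were. Their median was -2.98 and their range -4.03 to -1.30. An earlier analysis of these same data had shown this list to be lower in TG, so the count is no separate evidence.

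**Figure D5:**
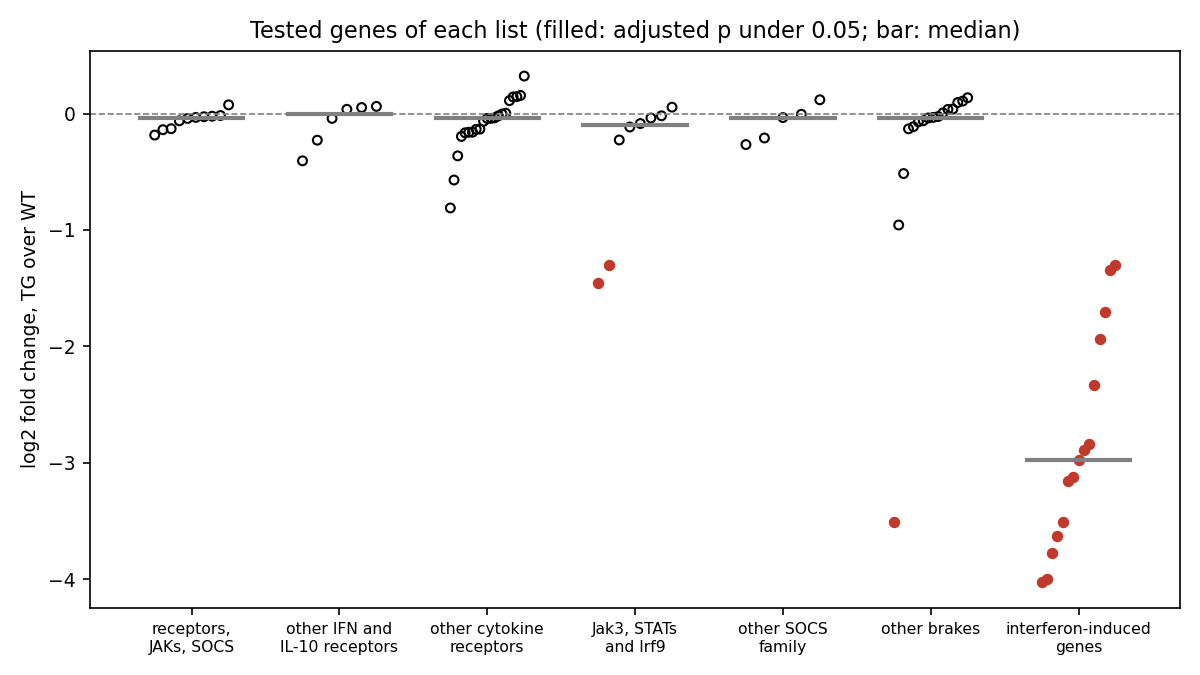
Log2 fold change, TG over WT, of the tested genes in each list; points are genes, filled where the adjusted p in edgeR is under 0.05, and grey bars are list medians. The 10 receptor, kinase and SOCS genes lie between -0.19 and 0.07 with no filled point. All 15 interferon-induced genes, a list already known from these data to be lower in TG, are filled at -1.30 or below. Stat2 and Usp18 are each shown in their pathway list and again among the interferon-induced genes.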

How the data were processed

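RNA of 6 whole mouse ovaries was read on a BGISEQ-500 sequencer (labels' protocols). Per the submitters' processing notes the build was mm10 and the tools included RSEM 1.3.1, Bowtie2 and DESeq2 1.4.5; annotation, strand setting and batches are not given in the sources used here. The deposited table holds the authors' estimated counts per gene, of which 8.50% to 9.12% per library are not whole. It also holds a value per length that was taken as FPKM deposited by the authors, judged from the values because the headers name no unit.

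After rounding, counts were tested by edgeR 4.0.16 under R 4.3.3 (TMM factors 0.990 to 1.015; filterByExpr at a count of 10 or more, total 15; two-sided quasi-likelihood test, Benjamini-Hochberg over 14124 genes, threshold 0.05). Standard errors are log2 fold changes over the root of F, with intervals from the t distribution at the fit's degrees of freedom. These intervals hold the spread between animals as well as counting error, through the quasi-likelihood dispersion. CPM use effective library sizes. The fit was also run on simulated counts with known changes, as a check of the code and not of power for the genes described here.

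Coordinates and promoters come from RefSeq tables of GRCm38.p6, matched by Entrez number for 18165 genes. Replicates differed by more than sampling noise (chi-square per degree of freedom of at least 7.94). The labels do not tie replicate numbers to a litter or day. The genes and lists were chosen with earlier results of these data known. All 10 genes are named. A single gene of the other lists was left out of them and is not reported here. Of the other pathway lists, except the interferon-induced reference genes, the called genes, up to 6, and the 2 with the smallest p are named by rule, with a few others for their role. Alternatives were other composition factors, count filters, a replicate block, leaving out libraries, DESeq2 1.42.0, limma-voom and limma-trend on log2(FPKM + 1) or log2(FPKM + 0.1) with limma 3.58.1.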

Additional observations from a re-analysis of the deposited data

How the results depend on the processing

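The count of the 10 genes called was 0 under all 17 alternatives, and 0 had an unadjusted p under 0.05 under any of them; the lowest unadjusted p was 0.0588, for Socs1 without TG replicate 3, and the lowest adjusted p was 0.913, for Ifngr2 with the replicate block. All genes called numbered 149, and between 119 and 204 over the alternatives. Ifngr1, Ifngr2, Jak1, Tyk2 and Socs1 kept the sign of their log2 fold change throughout; the other 5 turned. Leaving out 1 library at a time gave -0.0968 to 0.0146 for Ifnar1, -0.0739 to 0.0428 for Ifnar2, -0.0983 to 0.00161 for Jak2, -0.110 to 0.124 for Socs2 and -0.190 to 0.298 for Socs3. Socs3 was also above 0 with limma-voom (0.0190) and limma-trend on log2(FPKM + 1) (0.0259) or log2(FPKM + 0.1) (0.0270). Leaving out TG replicate 2 together with WT replicate 3, a choice made after seeing the data, gave Ifnar2 0.0480 and Socs2 0.120. The causes were not tested.

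Deviations of same-numbered libraries from their group means correlated at 0.23, 0.08 and 0.09, so the numbers were not taken as pairs, although each library correlated best with its own number, a hint from the data and not the design. With the replicate block 159 genes were called, 0 of the 10 among them, and Socs3 had 0.0164. No within-library ratio moved by more than the spread between replicates, but leaving out 1 library turned 2 of the 5: Socs1 to Socs3 ranged from -0.465 without WT replicate 1 to 0.0588 without TG replicate 1, and Ifnar1 to Ifnar2 from -0.0836 to 0.0510. Depth limits the interferon ligands that were in the table, whose counts were too low to test.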
